A study of Caenorhabditis elegans with 2 samples.

Results

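The distal intergenic RNT-1 peaks are the binding sites of this transcription factor outside protein-coding gene bodies and away from the gene starts named below. They were chosen by position alone. A peak of the authors' reproducible list was a member when its summit lay in no protein-coding gene body and outside the windows from 1000 bp upstream to 200 bp downstream of every start of a protein-coding, tRNA, snoRNA or miRNA gene. This rule gave 439 members of 1923 nuclear peaks, or 22.8% (95% Wilson interval 21.0% to 24.8%). Of the other nuclear peaks, 1062 lay at a protein-coding start, 164 at the start of a tRNA, snoRNA or miRNA gene and 258 in an intron or another portion of a gene body.

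The data are ChIP-seq, sequencing of DNA pulled down with a protein, from whole Caenorhabditis elegans hermaphrodites. Animals of the strain OP462, genotype unc-119(tm4063) III; wgIs462, were collected as late embryos 5 h after bleaching of eggs, and all carried RNT-1 with GFP and FLAG at its C terminus. The pull-down was made through GFP per the sample descriptions, whereas the antibody field names rnt-1. There is 1 group with 2 biological replicates of 1 library each, so no conditions could be compared, and a whole-organism pull-down does not tell which cells a peak came from. The labels do not say in which cells the tagged protein is made.

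RNT-1 is the RUNX protein of the worm. RUNX proteins bind a short GC-containing core sequence through their Runt domain, usually together with a beta partner, which in the worm is BRO-1, and they can activate or repress transcription. In larvae, RNT-1 is known to promote proliferation of seam cells, epidermal cells that divide like stem cells. Most worm genes have compact promoters, and regulatory elements far upstream or downstream of a gene are known chiefly from genes with long intergenic flanks, many of them developmental regulators.

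Sequences around the summits are shown first, beginning with members that hold the RUNX core, as 71 of 439 did. Larger differences between summits and the DNA beside them, in a GA-rich word and in base composition, are described below. The 6 members with the highest signal that hold the RUNX core within 50 bp of the summit are printed below with 50 bases to either side of the summit, on the plus strand of the RefSeq WBcel235 assembly (ce11), with the core in capitals. The core searched was TGCGGT or TGTGGT, or on the other strand ACCGCA or ACCACA, and each sequence is named by the gene with the nearest start. They came from chrII:12102534-12102634, chrIV:14032917-14033017, chrII:14496969-14497069, chrX:806628-806728, chrII:8787549-8787649 and chrX:16682062-16682162, in the order printed.
Y17G7B.17: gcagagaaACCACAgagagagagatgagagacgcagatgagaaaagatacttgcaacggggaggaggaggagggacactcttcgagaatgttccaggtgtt
Y37A1B.7: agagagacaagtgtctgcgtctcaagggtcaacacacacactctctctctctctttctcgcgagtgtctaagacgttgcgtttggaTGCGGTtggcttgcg
dhs-8: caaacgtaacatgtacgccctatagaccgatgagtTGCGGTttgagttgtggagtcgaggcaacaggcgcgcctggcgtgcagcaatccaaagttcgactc
gtr-1: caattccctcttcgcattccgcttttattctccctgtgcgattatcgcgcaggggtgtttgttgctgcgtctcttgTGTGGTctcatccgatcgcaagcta
F07H5.13: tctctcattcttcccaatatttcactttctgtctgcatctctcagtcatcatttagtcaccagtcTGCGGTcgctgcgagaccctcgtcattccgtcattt
F22H10.2: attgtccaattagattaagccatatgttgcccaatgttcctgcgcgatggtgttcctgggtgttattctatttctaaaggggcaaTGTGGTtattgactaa

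The core was no condition for a high signal. Among the 4 members with the highest signal, the second, near Y17G7B.17, held it, and the other 3 did not. Those 3 are printed in lower case throughout, because they also lack the GA word GAGAGA and the word ACGCAG on either strand. They came from chrV:1151445-1151545, chrX:5812187-5812287 and chrX:11094139-11094239.
cmd-1: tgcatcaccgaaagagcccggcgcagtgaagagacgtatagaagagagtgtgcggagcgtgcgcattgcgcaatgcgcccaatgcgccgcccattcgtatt
F13D11.3: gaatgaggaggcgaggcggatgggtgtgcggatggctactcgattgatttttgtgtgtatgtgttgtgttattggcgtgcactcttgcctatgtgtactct
W02H3.3: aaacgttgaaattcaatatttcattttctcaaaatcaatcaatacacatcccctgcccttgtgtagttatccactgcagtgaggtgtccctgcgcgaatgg

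The core was more frequent at the summits than beside them. It was present within 50 bp of the summit in 71 of 439 members, or 16.2% (95% Wilson interval 13.0% to 19.9%). Over all nuclear peaks the share was 14.8%. In windows of the same width centred 300 bp away, the core was found in 22 members on the lower-coordinate side (5.01%) and in 18 on the higher-coordinate side (4.10%). Side by side in the same peaks, 69 members had the core at the summit alone and 20 in the lower flank alone (two-sided exact McNemar test, p = 1.78e-07). Peaks are not replicates of animals or cultures, so this p describes the list. Of 239992 windows of that length placed end to end over all sequence where the rule allows members, 4.91% held the core, a share close to that of the flanks. The form TGTGGT was found at 10.7% of summits and TGCGGT at 7.06%. The centre of the core lay a median of 21.5 bp from the summit, and 42 of the 71 lay within 25 bp.

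A difference in the core between the distal members and other peaks was not shown. Its share was 2.43 percentage points higher than at protein-coding starts (95% Newcombe interval -1.42 to 6.63). Against gene bodies it was 3.38 points higher (-2.21 to 8.53), and both intervals include 0. At tRNA, snoRNA or miRNA starts the core share was above the distal one, at 21.3% (35 of 164, 95% Wilson interval 15.8% to 28.2%). The form TGTGGT was at 12.8% of those starts, and differences from them were not computed. Against protein-coding starts, TGTGGT alone was 3.74 points higher at the distal members, with an interval of 0.671 to 7.26. TGCGGT was 0.0935 points higher (-2.56 to 3.20). Members with the core had a median signal of 141, interquartile range 108 to 204, and members without it a median of 125, interquartile range 107 to 167. These ranges overlap over most of their length. With the members divided by signal into 4 ranges from high to low, the core was present in 24.5%, 13.6%, 10.9% and 15.6%. In the same ranges, the other nuclear peaks held it in 15.5%, 13.2%, 15.9% and 11.7%. Thus the highest range of the distal members had the highest share, 27 of 110, whereas the remaining ranges showed no order.

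Words other than the core were chosen for description with their shares over all peaks already known, so no test was made of them. The GA word, GAGAGA or TCTCTC on the other strand, was present at 181 members, or 41.2% (95% Wilson interval 36.7% to 45.9%). The flanks held it in 8.88% and 6.83%, and all sequence open to members in 5.30% of windows. Its share at the distal summits was also above that of other locations, by 14.8 percentage points against protein-coding starts (95% Newcombe interval 9.50 to 20.1) and by 10.6 points against gene bodies (3.20 to 17.7). Of the words examined, this one differed most between distal summits and starts. The word ACGCAG was at 14.1% of summits against 2.05% and 2.51% in the flanks, with a share at starts of 15.3%. It differed from starts by -1.13 points (-4.86 to 2.98). The strongest member with both words, near Y17G7B.17, is printed once more with these 2 words in capitals, where the last copy of the first word runs into the second.
Y17G7B.17: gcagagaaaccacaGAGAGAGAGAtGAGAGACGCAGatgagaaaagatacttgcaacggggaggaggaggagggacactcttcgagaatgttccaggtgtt

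**Figure D1:**
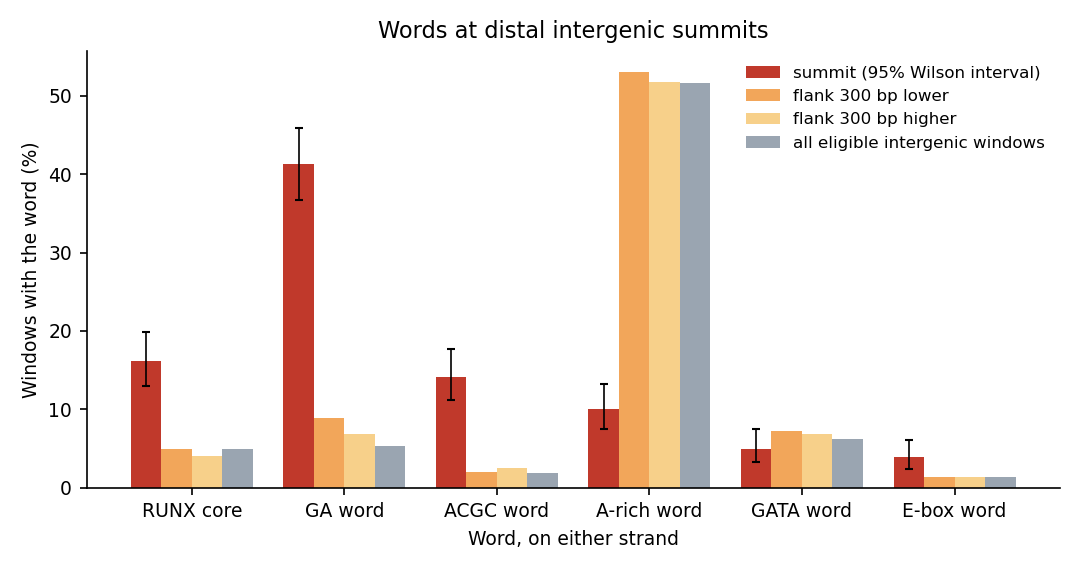
Share of windows (%) of 50 bp to either side of a centre that hold each of 6 words on either strand, at the summits of the 439 distal intergenic peaks, in flanks 300 bp to either side and in all intergenic windows open to members. The words from left to right are those described in the text, named by their main feature, and error bars are 95% Wilson intervals. The RUNX core and the GA and ACGC words stood above their flanks, and the A-rich word stood at 10.0% at summits against 53.1% and 51.7% beside them.

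Base composition moved with these words. The median GC content of the summit windows was 49.5%, against 34.7% and 33.7% in the flanks, and AAAAAT, rich in A, occurred at 10.0% of summits but in 53.1% and 51.7% of flanks. All sequence open to members held that word in 51.6% of windows, so the flanks resembled general intergenic DNA and the summits did not. At protein-coding starts AAAAAT was present at 20.1% of summits, 10.0 points more than at the distal summits (interval of the distal minus start difference -13.6 to -6.12). Gene body summits held it at 10.5%, a distal minus body difference of -0.44 points (-5.43 to 4.04), and tRNA, snoRNA or miRNA starts at 9.15%, so a low share was not particular to the distal members. The contribution of base composition to the core and GA shares was not tested. The GATA word AGATAA, the site read by GATA factors, was at 5.01% of distal summits and 7.29% and 6.83% of flanks. In gene bodies it was at 11.6% of summits, a difference of the distal share of -6.62 points (-11.4 to -2.45). At protein-coding starts it was at 4.52%, with a difference of 0.49 points (-1.71 to 3.18). The E-box word CACGTG, a site of basic helix-loop-helix proteins, was at 3.87% of distal summits and 1.37% of either flank. In all, 29 members held both the core and GAGAGA, 35 held GAGAGA and ACGCAG, 13 held the core and ACGCAG, and 194 held none of the 3.

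The signal of each region is a score deposited by the authors, without a stated scale, so it is compared only within a list. In the pooled list the members had a median signal of 128 (95% interval of the median 122 to 135), an interquartile range of 107 to 172 and a highest value of 528. Peaks at protein-coding starts had a median of 142, those in gene bodies 132 and those at tRNA, snoRNA or miRNA starts 154. The distal members were the lowest of these 4 locations by median, although their interquartile range overlapped each of the others. Of the members, 186 (42.4%) lay above the median of all nuclear peaks, 138, and 18 were among the 100 highest peaks of the whole list. The lowest member, near wrt-5, a Hedgehog-related gene, had 95.8, and the highest distal region left out of the reproducible list, near C07A9.9, had 95.7. Thus the lower edge of the set was set by the authors' threshold and not by a gap in the values.

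**Figure D2:**
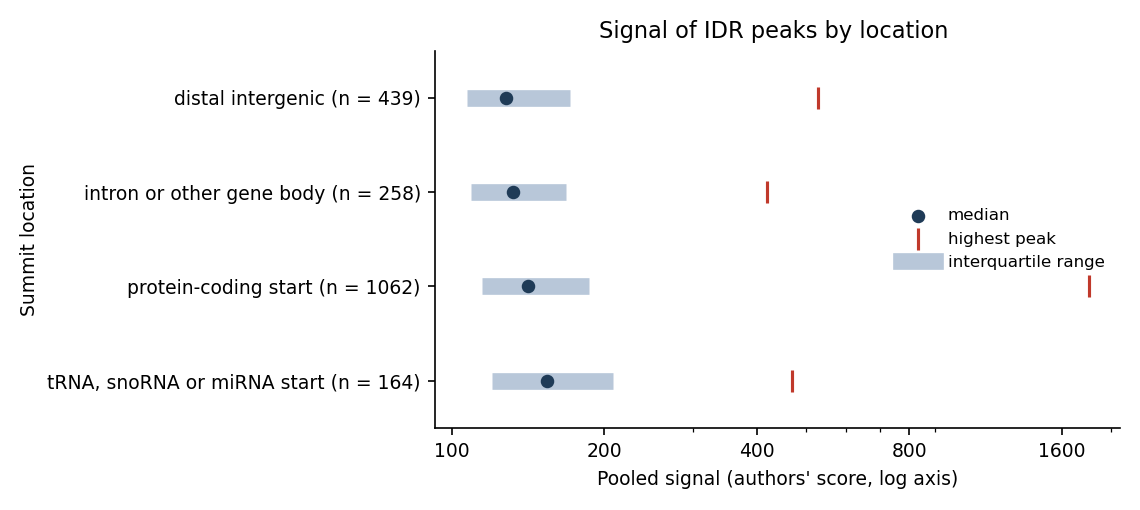
Pooled signal (the authors' score, log axis) of the nuclear peaks at 4 locations, with the median as a point, the interquartile range as a bar and the highest peak as a tick. The medians ran from 128 for the distal intergenic peaks to 154 for tRNA, snoRNA or miRNA starts, with overlapping bars, and the highest peak of all, at 1809, lay at a protein-coding start.

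All 439 members overlapped a region of each replicate's own list. The median signal of those regions was 80.0 in replicate 1 (range 37.3 to 308) and 53.7 in replicate 2 (range 19.5 to 272). Across members, the signals of the replicates had a Spearman correlation of 0.58 and, on log2 values, a Pearson r of 0.66. Over all nuclear peaks the values were 0.64 and 0.72. These are descriptions over peaks that share their libraries, and only peaks high in the pooled list entered them. Summits were located closely, with a median distance of 28 bp between the replicates. For 402 of the members the region was 436 bp wide, the most common width.

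The reproducible list was made from these same 2 replicates, so its peaks were favoured in advance to rank high in each. To describe each replicate alone, the 1931 regions with the highest signal were taken from each list, as many as the reproducible list holds. Of the members, 301 overlapped such a region in both replicates, or 68.6% (95% Wilson interval 64.1% to 72.7%), beside 74% of all nuclear peaks. A further 134 did so in 1 replicate and 4 in none. The difference from protein-coding starts was -7.24 percentage points (95% Newcombe interval -12.4 to -2.29). Against gene bodies, where 75.2% of peaks did so, it was -6.63 points (-13.3 to 0.362), an interval that includes 0. Median signal was 128 at the members, 142 at protein-coding starts and 132 in gene bodies. The contribution of signal to these differences was not tested. Within ranges of signal the members were not uniformly lower. In the 4 ranges from high to low signal, the distal shares were 100%, 90.9%, 60.9% and 22.0%, and other nuclear peaks in the same ranges had 99.8%, 96.2%, 61.3% and 15.8%. The least reproduced members were low in 1 replicate only. The peak near mak-1, a kinase gene, had 84.7 in replicate 1 and 19.5 in replicate 2, where it ranked 7198. Conversely, the peak near unc-7, a gap junction gene, had 37.3 in replicate 1, rank 5025, and 55.6 in replicate 2.

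**Figure D3:**
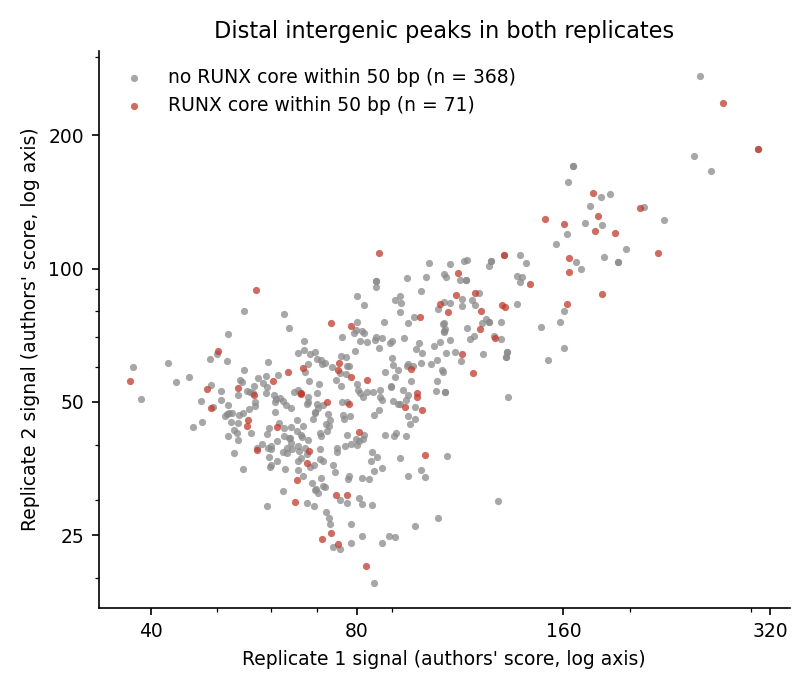
Signal of the overlapping region in replicate 1 (x axis) and replicate 2 (y axis) for each of the 439 distal intergenic peaks, both on log axes of the authors' score, with the 71 peaks that hold the RUNX core in red. The 15 highest peaks ranked 164 or better in replicate 1 and 143 or better in replicate 2. Values of the others were scattered (Spearman correlation 0.58 over all points), and red points occurred over the whole range.

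Some members overlap and may not be separate sites. In 11 pairs, 2 member peaks overlapped each other with summits 200 bp to 224 bp apart. Each member was given the strongest replicate region it overlapped, which was the same for both peaks of a pair. Their replicate values are therefore shared and do not describe the weaker peak alone. Counting each such pair once left 428 regions. The share with the core was then 16.1%, and the share among the highest regions of both replicates was 67.8%. In the whole pooled list, which keeps background regions, 4303 nuclear regions lay at distal intergenic positions, and 10.2% of them were in the reproducible list. Of all nuclear regions of that list 9.72% were, of those at protein-coding starts 15.5% and of those in gene bodies 3.17%. By this count distal positions were near the background of the list and between the other locations.

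Members were spread over all 6 chromosomes. Chromosome X held 120, or 27.3% (95% exact binomial interval 23.2% to 31.8%), beside 23% of all nuclear peaks. X also held 22.4% of the sequence open to members, which totals 24.7 Mb or 24.6% of the nuclear genome. Per Mb of that open sequence, X held 21.7 members, chromosome I 23.1, III 21.7, II 17.5, IV 13.9 and V 12.5. X was therefore not the densest chromosome, and IV and V were the sparsest. Among the 100 members with the highest signal, 34 lay on X, although the median signal of the members on X, 125, was below that of all members, 128. With overlapping members counted once, the share on X was 26.4%.

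Distances were measured from the summit to the nearest start of a protein-coding gene on either strand. The median was 2411 bp, the interquartile range 1509 bp to 3998 bp, the lowest value 705 bp and the highest 14446 bp. For 344 members (78.4%) the summit lay upstream of that start, and 262 (59.7%) were more than 2000 bp from it. The rule excludes most positions nearer than 1000 bp, so the lower end of the distribution is fixed by it. Per Mb of open sequence, density went from 21.4 members between 1000 bp and 2000 bp to 17.3 between 2000 bp and 5000 bp, 15.3 between 5000 bp and 10000 bp and 7.56 beyond 10000 bp. Below 1000 bp, where little sequence is open, it was 13.5, from 9 members with a median signal of 107. Only 7 members were in the band beyond 10000 bp, and 3 of them held the core. Median signal in the 4 bands from 1000 bp on was 125, 133, 128 and 136.

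**Figure D4:**
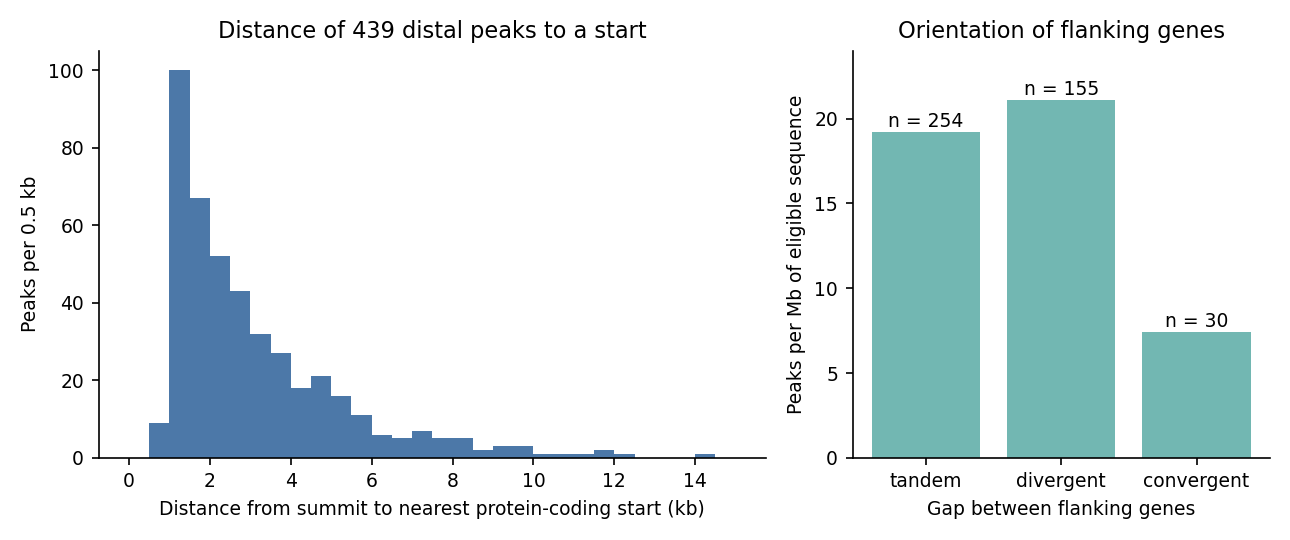
Left, number of the 439 distal intergenic peaks per 0.5 kb of distance from the summit to the nearest protein-coding start, and right, peaks per Mb of sequence open to members in gaps whose flanking genes are in tandem, divergent or convergent. Distances peaked just beyond 1 kb with a tail to 14446 bp, and convergent gaps held 7.40 peaks per Mb against 19.2 and 21.1 in the others.

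The peaks at the edge of the start windows show how the limit of 1000 bp cuts a continuous distribution. Just outside it, and so members, were summits 1006 bp upstream of algn-10 with a signal of 185, 1007 bp upstream of dhs-8 with 329 and 1008 bp upstream of zag-1 with 106. Just inside it were summits 998 bp upstream of zig-1 with 120, 987 bp upstream of let-92 with 211 and 971 bp upstream of C12D12.3 with 141. The 2 sets of values overlapped.

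Density also differed with the orientation of the flanking genes. Gaps between genes in tandem held 254 members, or 19.2 per Mb of open sequence, and gaps between divergent genes, where both starts face the gap, held 155, or 21.1 per Mb. Gaps between convergent genes, where both gene ends face it, held 30, or 7.40 per Mb, which is 6.83% of members on 16.4% of the open sequence. Convergent gaps were nevertheless represented at the top, with 4 of the 15 members of highest signal. Median signal was 127 in tandem, 132 in divergent and 127 in convergent gaps, so the peaks found there were not weaker by median. The core was present at 13.8% of members in tandem gaps, 19.4% in divergent gaps and 6 of 30 in convergent gaps.

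Members lay in 384 gaps, with a median length of 6684.5 bp against 2409 bp for the 8917 gaps that hold any open sequence. A single member was found in 341 of them, 2 members in 36, 3 in 5, 4 in 1 and 7 in 1. The gene with the nearest start was 1 of the 2 genes flanking the gap for 436 members. Starts of non-coding genes other than tRNA, snoRNA and miRNA were not part of the rule. For 136 members (31.0%) the summit lay in the start window of a gene annotated only as ncRNA, and for 71 inside such a gene. Neither count was set beside the length of such windows or genes. Clear of the bodies and start windows of annotated genes of every kind were 269 members (61.3%), and 170 (38.7%) were not. Of the open sequence, 16.3 Mb was clear in the same way and 8.36 Mb was not, and the difference in shares was not tested. Those 269 had a median signal of 133 and the core in 15.6%, and the other 170 had 125 and 17.1%.

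The member with the highest signal lay at chrV:1151323-1151739, 4776 bp upstream of cmd-1, which encodes calmodulin, the calcium sensor. Its signal was 528 in the pooled list, 253 in replicate 1 and 272 in replicate 2. It ranked 14 among all pooled regions and fell inside linc-128, a long intergenic non-coding RNA gene. The next, at chrII:12102431-12102709, had 514, with 273 and 236 in the replicates, and lay 2595 bp upstream of Y17G7B.17. The third, at chrX:5811980-5812470, had 487, with 308 and 186. It lay between F13D11.3 and hbl-1, a Hunchback-type zinc finger gene of the heterochronic pathway, which times cell fates, 9905 bp from the body of hbl-1. In all 3 the replicates placed the region among their 33 highest.

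The fourth member had 426 in the pooled list, 248 in replicate 1 and 179 in replicate 2, and lay between the converging ends of W04G3.11 and W02H3.3. The fifth, 2093 bp upstream of sup-26, an RNA-binding protein gene, had 425, 263 and 166. Its summit was GC-rich at 61.4%, and a second member in the same gap had 116 in the pooled list. A member 1676 bp upstream of ttn-1, which encodes the giant muscle protein titin, had 351, 209 and 138. Between the end of adm-2, a gene of the ADAM metalloprotease family, and the start of K02D3.1, the signal was 344, with 224 and 129 in the replicates. Each of these ranked within the 78 highest regions of either replicate's own list, apart from the second sup-26 member.

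The other members among the 15 highest had signals from 342 down to 314. In convergent gaps lay a peak between irld-55 and Y37A1B.7 with 342, a peak beyond the end of C30E1.4 with 336 and a peak between gtr-1 and F25E2.2 with 315. The first and the last of these held the core. At a divergent gap, the peak between cysl-2, a cysteine synthase family gene, and dhs-8, a short-chain dehydrogenase gene, had 329, with 220 and 108 in the replicates. A peak 1078 bp upstream of mtm-3, a myotubularin phosphatase gene, had 328, with 181 and 145. The gap between F54F12.1 and Y39E4B.6 held 2 members, with 326 and 205. Near mig-6, which encodes papilin, an extracellular matrix protein, the signal was 319, with 163 and 157, at 4378 bp from the gene and past the end of lbp-4, a lipid-binding protein gene. Between ceh-86, a homeobox gene, and vab-19, whose ankyrin-repeat protein acts at epidermal attachment structures, it was 314, with 175 and 138. Each of the 15 ranked 164 or better in replicate 1 and 143 or better in replicate 2.

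The gap with the most members spanned 18574 bp between snt-1, a synaptotagmin gene, and egl-27. The egl-27 gene encodes a chromatin-associated protein with a GATA-type zinc finger. This gap held 7 members over 10446 bp, all its reproducible peaks, out of 18 regions of the pooled list. Their pooled signals, from the snt-1 side to the egl-27 side, were 200.8, 112.5, 177, 117, 188, 106 and 125. In replicate 1 the same regions had 86.3, 66.6, 99.0, 90.8, 127, 65.3 and 85.5. In replicate 2 they had 108, 44.0, 77.9, 24.8, 70.4, 45.5 and 37.5. The replicates differed in which region was highest, the first in replicate 2 and the fifth in replicate 1. The first and the third held the core, and 5 of the 7 were among the highest regions of both replicates. The nearest to egl-27 lay 2058 bp from it and the farthest 12504 bp, and egl-27 also had a peak at its own start.

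The gap of 16219 bp between F13D11.3 and hbl-1 held 4 members, of which the highest pair overlapped, so that 3 separate regions remained. The pair had pooled signals of 487 and 141 with summits 212 bp apart, and the lower of the pair held the core. Toward hbl-1 followed a peak of 99.6 in the pooled list, 77.2 in replicate 1 and 30.8 in replicate 2, lying 5725 bp from the gene. A peak of 197, with 127 and 69.6 in the replicates, lay 3708 bp from it. Both held the core. Thus 3 of these 4 members had it, 1 of them in the overlapping pair, beside 16.2% of all members. The other gaps described here with several members held fewer, 2 of 7 toward egl-27, 1 of 3 each near tax-6 and ZC190.4, and 0 of 3 each near gei-13 and bcl-11.

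**Figure D5:**
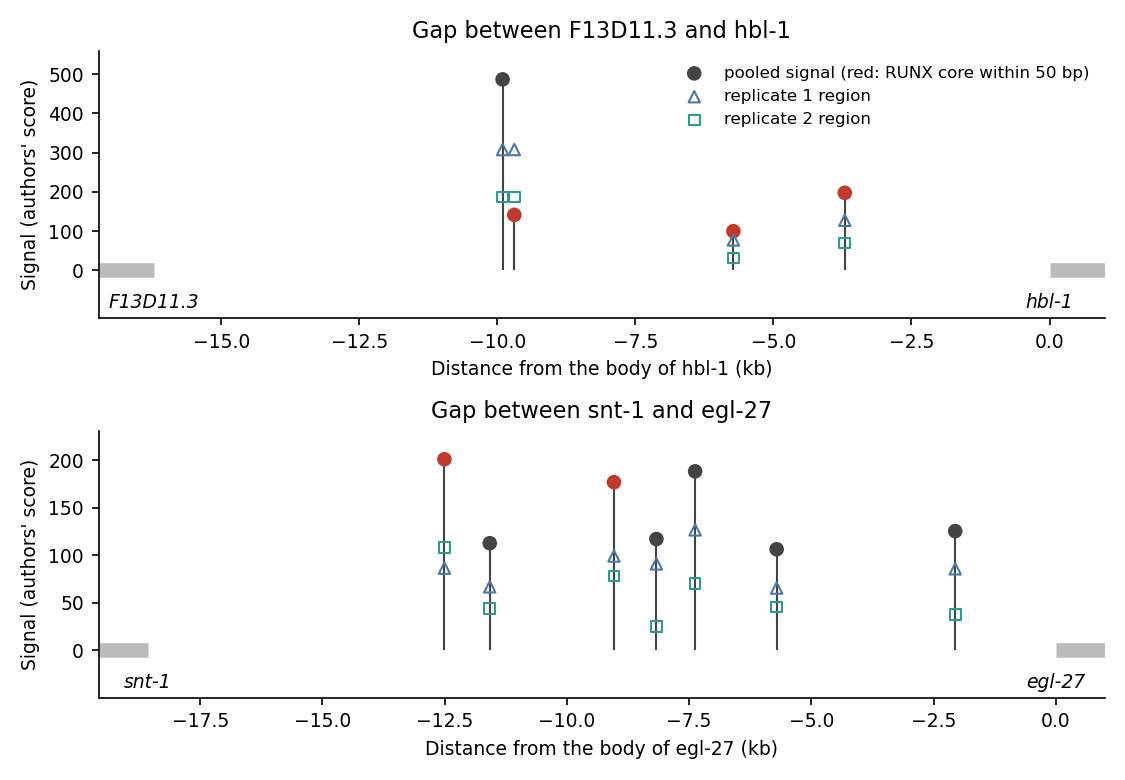
Member peaks in the gaps between F13D11.3 and hbl-1 (top) and between snt-1 and egl-27 (bottom), at their distance in kb from the body of the right-hand gene, with the pooled signal as a filled point on a line (red where the RUNX core lies within 50 bp) and the overlapping replicate regions as open symbols. The top gap has 1 dominant peak of 487 at 9905 bp, and the bottom gap has 7 peaks between 106 and 200.8.

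A further 5 gaps held 3 members each, of which 4 are described. Near tax-6, the calcineurin catalytic subunit gene, the pooled signals were 173, 99.0 and 112.5, the first pair being an overlapping one 2297 bp and 2503 bp from the gene. Between gei-13 and C15H7.3 they were 99.8, 121 and 149, and none was among the highest regions of both replicates, with replicate 2 signals of 32.9, 38.6 and 37.7. Between asp-13, an aspartyl protease gene, and ZC190.4 they ran from 108 to 147. Upstream of bcl-11, the counterpart of the vertebrate BCL11 zinc finger genes, they ran from 99.4 to 146 at distances of 3479 bp to 13316 bp. These 4 gaps ranged from 12285 bp to 22871 bp.

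The members farthest from any start were weak ones. The farthest, at chrIV:3101153-3101588, lay 14446 bp upstream of Y67D8C.9 and 1786 bp past the end of mca-3, a plasma membrane calcium pump gene, and had 114 in the pooled list, 57.3 in replicate 1 and 56.5 in replicate 2. The second lay 12261 bp upstream of col-105, a collagen gene, in the gap with nhr-41, with 97.3, 38.7 and 50.6. The third was a member of the egl-27 gap, with a pooled signal of 112.5. Signal did not follow distance as a rule. The 7 members beyond 10000 bp had a median of 136, and among them the convergent-gap peak near Y37A1B.7, 10813 bp from a start, had 342.

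Flanking genes were counted as the protein-coding genes on either side of a gap with a member, which does not say that a peak acts on them. By this count 754 of 19973 protein-coding genes, or 3.78%, flanked a member. The share rose with the length of a gene's longer flank, from 0.144% of genes with up to 1000 bp to 3.37% between 2000 bp and 5000 bp, 8.36% between 5000 bp and 10000 bp and 12.2% above that. Gene lists therefore have to be read beside the length of their flanks, which had a median of 2504 bp over all protein-coding genes. Many regulator lists had longer ones. No list was tested, and the counts below describe these peaks.

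Genes of the seam cell and epidermal lineages, the tissue in which RNT-1 is best known, were among the flanking genes. Of 25 listed seam and epidermal regulators 6 flanked a member, with a median longer flank of 5193 bp. A peak beyond the end of elt-3, a GATA factor of the epidermis, had 188 in the pooled list, 105 in replicate 1 and 80.9 in replicate 2. This gap is shared with alg-1, whose start is nearer. A peak 5986 bp from the start of unc-62, the Meis-type Hox cofactor gene, had 154, with 85.0 and 68.9. Members also flanked ztf-6, a zinc finger gene, with 132, and lin-22, a Hairy-type repressor that acts in seam cell patterning, with 132. Of 12 GATA factor genes 3 flanked members, and elt-1, which specifies the epidermis, had a member holding the core 1677 bp away with 114, 66.4 and 52.3.

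Of 11 Hox genes and cofactors 3 flanked members, with a median longer flank of 10917 bp. Besides unc-62 these were ceh-13, the labial-type Hox gene, with 146 and a further peak at its own start, and psa-3, a Meis-type gene that acts in asymmetric division, with 104 and the core at 27107 bp from the gene, nearer to another start. Of 15 heterochronic genes 4 flanked members. Apart from hbl-1 they were alg-1, a microRNA Argonaute gene, with 188, ain-1, a GW182-type gene of the same silencing complex, with 136 and the core, and lin-14, a nuclear factor that sets the earliest larval fates, with 113. All of these 3 also had a peak at their own start, whereas hbl-1 did not. In replicates 1 and 2 the member near lin-14 had 64.8 and 52.7.

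Signalling genes were also present. Of 29 Wnt pathway genes 8 flanked members, with a median longer flank of 4511 bp. The highest were mom-5, a Frizzled receptor gene, with 185 in the pooled list, 116 in replicate 1 and 73.4 in replicate 2, and mig-14, the Wntless gene needed to secrete Wnt, with 174, 114 and 64.0 and with the core. Next came kin-19, a casein kinase gene, with 139, and lin-18, a Ryk receptor gene, with 138. Only 3 of the 29 genes were the one with the nearest start, so most Wnt genes counted here face a peak that is nearer to another start. Of 25 Ras, EGF and FGF pathway genes 5 flanked members, among them gap-2, a Ras GTPase-activating protein gene, with 268, let-60, the Ras gene, with 203, sos-1, the Ras exchange factor gene, with 161, and let-756, an FGF gene, with 148. Of 18 TGF-beta pathway genes 3 did, and sma-9, a Schnurri-type factor of the body size pathway, had the highest at 278, with 192 and 103. The others were unc-129, a ligand gene, with 139, and daf-3, a Smad gene, with 100.6. Of 20 Notch pathway genes 2 did, lin-11, a LIM homeobox gene downstream of the pathway in the vulva, with 229, and sup-17, an ADAM protease gene, with 109. Neither had the start nearest to its peak.

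The calcium and calmodulin list had the highest share of all, with 6 of 17 genes, or 35.3% (95% Wilson interval 17.3% to 58.7%), at a median longer flank of 6177 bp. It is also among the shortest lists. Beside cmd-1 and tax-6 it included cal-1, a calmodulin-like gene, with 239 in the pooled list, 162 in replicate 1 and 83.0 in replicate 2 at a core-holding peak 1708 bp away. It also included sca-1, the calcium pump gene of the sarcoplasmic reticulum, with 194 at a peak 796 bp past its end, the stronger of an overlapping pair. This peak lay 109 bp past the end of klp-7 in a gap of 904 bp. All of its summit window is masked in the assembly as repeat or low-complexity sequence. Most of the window was so masked in 25 members (5.69%), beside 6.81% of all nuclear peaks. On its other side, sca-1 had a member 1650 bp upstream of its start with 99.1, 49.0 and 48.5. That peak held the core, and its summit window was unmasked. Of 35 body wall muscle genes 7 flanked members. They included deb-1, the vinculin gene, with 185, pat-2, an alpha integrin gene, with 155, tnt-3, a troponin T gene, with 146, and unc-97, a PINCH-type adaptor gene of the attachment sites, with 117. In this list 19 genes had a peak at their own start, more than had a distal one.

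Of 36 basement membrane and axon guidance genes 7 flanked members. After mig-6 the highest were plx-1, a plexin gene, with 271 and the core, and let-2, a type IV collagen gene, with 245. Next was sdn-1, the syndecan gene, with 149 and the core. In replicates 1 and 2 the plx-1 peak had 163 and 106. Of 20 epidermal junction and attachment genes 3 did, namely vab-19, unc-70, the beta spectrin gene, with 247 and the core, and dlg-1, the Discs large gene, with 113. Of 32 cuticle collagen and apical matrix genes 3 did, all with low signals, dpy-10 with 127, fbn-1 with 116 and sqt-3 with 109.

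Of 24 cell cycle control genes 2 flanked members. One was cki-1, the cyclin-dependent kinase inhibitor gene that RNT-1 is known from genetics to restrain in the seam lineage. Its peak lay 9201 bp from the gene in a gap of 16917 bp, nearer to another start, and had 142 in the pooled list, 82.8 in replicate 1 and 52.5 in replicate 2. It held no core within 50 bp of the summit. The other was cdk-4, a G1 kinase gene, with 98.4. Among lists of differentiated tissues, 1 of 28 intestinal genes, cpl-1, a cathepsin L gene, with 104, and 1 of 22 pharyngeal genes, ceh-22, an NK-2 homeobox gene, with 135, flanked members. Of 38 neuronal fate regulators 3 did, lin-11, unc-30, a Pitx-type gene, with 139, and zag-1, a ZEB-type gene, with 106. This share of 7.89% is near that of all genes with a flank of 5000 bp to 10000 bp, and the list's median is 6038 bp.

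Large families differed in their shares. Of 269 nuclear hormone receptor genes 8 flanked members (2.97%), with nhr-20 at 269 and nhr-1 at 236 as the highest. Of 63 homeobox genes of the ceh class 5 did (7.94%), with ceh-24 at 124 in addition to those named. Of 81 cytosolic ribosomal protein genes 1 did, rpl-21, with 106, and 39 had a peak at their own start. Of 31 chaperone genes 2 did, both carrying the symbol hsp-16.48 and facing the same peak of 104, while 14 had a peak at their start. Chemoreceptor genes had the lowest share, 4 of 1215 or 0.329% (95% Wilson interval 0.128% to 0.843%). The highest of these 4 was srh-134, with 136. The list's median longer flank was 2076 bp, against 2504 bp over all protein-coding genes, and its share was not tested against genes of like flanks. Peaks at their own start were also few in this list, at 9 of the 1215 genes, beside 6.76% of all protein-coding genes.

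Peaks at a gene's own start were also counted among the flanking genes. Of the 754 flanking genes, 75, or 9.95% (95% Wilson interval 8.01% to 12.3%), had a reproducible summit in their start window, beside 6.76% of all protein-coding genes. Among genes with a longer flank of 2000 bp to 5000 bp, 11.2% of flanking genes and 6.01% of the others did. The values were 10.7% and 5.48% between 5000 bp and 10000 bp, and 8.40% and 5.67% above that. The direction was the same in these 3 bands. Shorter flanks had few flanking genes. Between 1000 bp and 2000 bp, 1 of 14 flanking genes and 6.63% of the others had a start peak. Up to 1000 bp the direction was opposite, with 0 of 7 and 8.51%. The difference was not tested because neighbouring genes can share a peak. Counted by peaks, 92 members (21.0%) had at least 1 flanking gene with such a start peak.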

How the data were processed

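Per the file headers and descriptions, the deposited lists are narrowPeak regions on ce11, 1 per replicate and 1 pooled, both keeping background regions, and 1 thresholded by the irreproducible discovery rate (IDR) with 1931 peaks, 8 of them mitochondrial and left out. A control alignment is named for each list. The aligner, peak caller and IDR cutoff were not given in the sources used here. Each signal is a score deposited by the authors with no stated scale, and it ranked regions within lists. The deposited −log10 q-value was read but not used for ranking. Summits came from the offset column deposited by the authors. Read depth is unknown, so intervals on shares cover counting error over peaks only.

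Lists on ce10 were not used. Positions are 1-based. The 19973 nuclear protein-coding genes are from Ensembl 115, and sequence was read from the RefSeq genome of the same assembly. A gap is the sequence between neighbouring protein-coding gene bodies, and open sequence is where a summit would qualify as a member. A member matched a replicate region at an overlap of at least 1 bp, and the strongest such region was taken. The one test was a two-sided exact McNemar test of the core at summit and lower flank, at a threshold of 0.05. Shares have Wilson or exact intervals and their differences Newcombe intervals, at 95% (Python 3.11.15, scipy 1.17.1, statsmodels 0.14.6). Scripts were tested on simulated data.

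Members and the 22 gene lists were chosen with earlier results of these data known, and 9 list entries were not matched to a protein-coding symbol. Named genes flank the 15 highest members, gaps with 3 or more members, the 3 farthest members, or are up to 4 per list by highest signal. The peaks of 1 gap with 3 members are not reported here. The peaks near wrt-5, C07A9.9, mak-1 and unc-7 are extremes named after their values were seen. Alternatives were other start windows, gene sets, peak numbers, flanks, window sizes and single replicates.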

Additional observations from a re-analysis of the deposited data

How the results depend on the processing

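Of 49 alternative values, 37 were counted as keeping their result and 12 as moved. The 37 include the rise in the number of members to 593 given below. The excess of the RUNX core at summits over the flank kept its direction and passed the exact McNemar test in every alternative run, with shares from 9.11% to 24.6% and p up to 0.00319. Counting overlapping members once, chosen after seeing the data, moved none of the 6 results it was applied to. The number of members, 439, was 593 with start windows of 500 bp upstream to 100 bp downstream, and fell to 272 with start windows of 2000 bp upstream to 500 bp downstream, to 269 with all kinds of annotated gene and to 186 in the stronger 50% of the nuclear peaks. In that stronger set the median signal was 182 and the share among the highest regions of both replicates 97.8%. That share was 33.5% with 50% as many top regions and 96.4% with 2 times as many. The median distance to a start was 1708 bp with the narrowest windows and 3390 bp with the widest. With single replicates, whose scores have their own scales, the median signal ranged from 53.1 to 79.9. Of the listed genes, 80 flanked a member, and 46 were the gene with the nearest start. The window edges and gene kinds thus set the size of the group by construction. No paired analysis was possible because there is 1 group.

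With 2 replicates and no stated depth, the spread between animals could not be estimated, and a peak weak in either list is uncertain. Summits of regions with a fixed width, overlapping peaks and paralogous genes limit how exactly a site and its gene can be assigned.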
